A study of Homo sapiens with 120 samples.

Results

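TFAP2A, TFAP2B and TFAP2C encode the transcription factors AP-2alpha, AP-2beta and AP-2gamma, and they were followed here by their gene symbols through every library of a bulk RNA-seq study of lncPRESS1 in human embryonic stem cells. They are 3 of the 62703 genes counted, and each symbol matched 1 row. The cells were H1, a long-established line of human embryonic stem cells, in 3 forms: ΔATG cells, named for the loss of a start codon of lncPRESS1, KO cells, in which the long noncoding RNA gene lncPRESS1 was knocked out, and WT cells. Each was sampled at day 0 and on days 1 to 5 of 3 protocols: BMP4, given for mesoderm, a SMAD inhibition kit for neural induction (SMADi), and a definitive endoderm kit (Endo). A further 24 libraries came from H1 cells overexpressing lncPRESS1ΔATG, lncSIRP or lncPRESS1, or carrying a vector, at stages called early, middle and late. The labels give neither the number of clones of each edit, nor the length of the stages, nor what lncSIRP is.

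AP-2 proteins bind GC-rich palindromes in DNA as dimers and act with coactivators of the CITED and p300/CBP families, and the KCTD1 and KCTD15 proteins repress them. In vertebrate embryos TFAP2A is active in surface ectoderm and neural crest, TFAP2B in neural crest and kidney, and TFAP2C in trophoblast and primordial germ cells. TFAP2C is also expressed in human pluripotent cells, and BMP signalling is a known inducer of AP-2 genes in non-neural ectoderm and amnion.

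Every group held 2 libraries, lettered a and b, 96 in the 48 differentiation groups and 24 in the 12 overexpression groups, with 38298603 to 71219834 estimated counts each. The labels do not say whether the letters are separate cultures, so the tests measure the spread between these libraries, which may be technical. LNCPRESS1, the edited gene, was at 53.1 and 35.2 CPM (counts scaled to library size) in ΔATG, 13.2 and 5.60 CPM in KO and 21.4 and 40.6 CPM in WT cells at day 0, so KO cells still gave LNCPRESS1 counts, and the edit is not read directly by a gene-level count. In the overexpression set the levels went against some labels: LNCPRESS1 was at 13.7 and 13.3 CPM in the middle libraries labelled lncSIRP and 55.1 and 58.6 CPM in those labelled lncPRESS1, against 47.8 and 36.3 CPM in vector cells, while early lncSIRP libraries had 185 and 133 CPM and early lncPRESS1 libraries 32.3 and 53.8 CPM, against 29 and 30.2 CPM in vector cells. Those groups are therefore called by their labels only.

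In GENCODE 29 on GRCh38, TFAP2A (ENSG00000137203) lies at chr6:10393186-10419659 on the minus strand, TFAP2B (ENSG00000008196) at chr6:50818723-50847613 on the plus strand and TFAP2C (ENSG00000087510) at chr20:56629302-56639283 on the plus strand. All 3 are protein-coding, and their principal transcripts have 8, 7 and 7 exons. The antisense genes TFAP2A-AS1 and TFAP2A-AS2 lie wholly within TFAP2A, at chr6:10409340-10416446 and chr6:10404502-10407928, and share 438 and 941 exon bases with it. Since the counting is not stated to use strand, reads of TFAP2A and of these genes cannot be told apart with certainty. Their own levels reached 0.407 CPM for TFAP2A-AS1 and 1.87 CPM for TFAP2A-AS2, which matters where TFAP2A itself is below about 2 CPM.

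The stretches before the first bases of TFAP2A and TFAP2B are shown because these 2 genes, silent or nearly so at day 0, rose in the BMP4 protocol in the results that follow. They come from RefSeq on GRCh38.p14, at chr6:10419660-10419909 on the minus strand and chr6:50818621-50818722 on the plus strand, and run 5′ to 3′ on the strand of the gene.
TFAP2A: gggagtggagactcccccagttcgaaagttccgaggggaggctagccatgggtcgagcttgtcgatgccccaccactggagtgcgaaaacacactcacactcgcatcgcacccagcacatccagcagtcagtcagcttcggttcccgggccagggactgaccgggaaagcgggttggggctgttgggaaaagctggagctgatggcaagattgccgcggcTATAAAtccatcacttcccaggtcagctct
TFAP2B: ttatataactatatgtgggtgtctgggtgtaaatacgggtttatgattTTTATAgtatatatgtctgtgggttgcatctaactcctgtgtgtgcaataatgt
Capitals mark TATAAA, read on the other strand as TTTATA in TFAP2B. Its first base is at -30 from the RefSeq start of TFAP2A and at -202 from that of TFAP2B, and 10.7% of 35116 windows of 250 bases before RefSeq starts hold it on either strand. The AP-2 palindrome GCCNNNGGC (19.8% of windows), the SMAD-binding GGCGCC (16.4%) and the GATA letters AGATAA (9.17%) were searched on both strands and were not found in the 250 bases before either start. The GC content of these windows was 59.6% for TFAP2A and 40.8% for TFAP2B, against a median of 58.0% over all windows. For TFAP2B only the 102 bases before the GENCODE start at 50818723 are printed, while its window of 250 bases runs up to the RefSeq start at 50818871. The TFAP2A values are for the RefSeq start at 10419659. Another RefSeq start of TFAP2A, at 10412391 within the gene, had 71.2% GC and no match to any of these letters, TATAAA included.

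In WT cells of the BMP4 protocol TFAP2A came on within a day, TFAP2B followed from day 2 and TFAP2C rose modestly. No untreated cells were sampled on days 1 to 5, so time and medium cannot be told apart from BMP4. TFAP2A was at 0.0677 and 0.105 CPM at day 0, and at 32.8 and 35.5 CPM on day 1, 32.4 and 35.5 CPM on day 2, 54.0 and 41.7 CPM on day 3, 66.9 and 48.7 CPM on day 4 and 71.4 and 69.1 CPM on day 5. No BMP4 library overlapped the day 0 libraries, and the change against day 0 was 8.59 ± 0.34 on the log2 scale (SE, n = 2 libraries each) on day 1 and 9.63 ± 0.32 on day 5, with adjusted p = 5.49e-33 in edgeR's quasi-likelihood test with Benjamini-Hochberg adjustment. TFAP2B had no counts in either WT library at day 0, and was at 0.0189 and 0.251 CPM on day 1, 1.17 and 1.14 CPM on day 2, 4.45 and 3.07 CPM on day 3, 3.16 and 1.58 CPM on day 4 and 1.71 and 2.07 CPM on day 5. Its highest values were those of day 3, at least 145-fold over a floor of 3 counts across the day 0 libraries, and at least 44.6-fold on day 2, 91.7-fold on day 4 and 73.2-fold on day 5. TFAP2B passed the test on days 2 to 5 (adjusted p of 5.53e-06, 4.64e-11, 2.47e-09 and 2.38e-08) and not on day 1 (0.110). TFAP2C started at 18.0 and 15.3 CPM and was at 36.4 and 32.0 CPM on day 1 and 28.3 and 22.6 CPM on day 5, a log2 change of 1.04 ± 0.16 on day 1 (adjusted p = 9.19e-07) and 0.61 ± 0.16 on day 5 (0.00150). All 3 genes were called on day 5 of BMP4, where 45% of the 25821 genes tested were; on days 1 to 4, where TFAP2A and TFAP2C were called and TFAP2B from day 2, the shares were 29.6%, 32%, 37% and 44.5%. The day 5 difference of TFAP2C missed the threshold without WT BMP4 day 5 replicate a, at 0.43 (adjusted p = 0.0851).

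The other 2 protocols gave different patterns of the same genes. Under SMADi, TFAP2C in WT cells was at 25.4 and 23.8 CPM on day 1, 51.7 and 53.3 CPM on day 2, 79.0 and 69.2 CPM on day 3, 45.9 and 46.3 CPM on day 4 and 24.3 and 20.3 CPM on day 5. The day 3 libraries were the highest for TFAP2C of the whole study, 2.15 ± 0.16 above day 0 (adjusted p = 1.16e-16), and the day 5 libraries were 0.42 ± 0.17 above it (0.0295). This day 5 call of TFAP2C is lost without WT SMADi day 5 replicate a (0.26) and without WT day 0 replicate b (0.29). TFAP2A stayed at 0.0770 to 0.422 CPM on the 5 days. TFAP2B, without counts on days 1 to 3, reached 0.687 and 0.259 CPM on day 5, at least 18.3-fold above its day 0 floor (adjusted p = 0.000805). On day 5 of SMADi 2 of the 3 genes, TFAP2B and TFAP2C, were called, against 53.5% of all genes tested. TFAP2C was called on days 1 to 4 as well, the day 1 call being lost without WT day 0 replicate b (0.43, adjusted p = 0.0999). TFAP2A was called on day 4, a call lost without either WT day 0 library. TFAP2A-AS2 was at 0 to 0.415 CPM in the 30 SMADi libraries, as low as TFAP2A itself. On days 1 to 4 the shares of all genes called were 44.9%, 37.2%, 40.2% and 46.6%.

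Under Endo, TFAP2A gave a brief peak of 5.60 and 4.28 CPM on day 1 in WT cells, and was at 0.662 and 1.08 CPM on day 2 and 0.639 and 0.570 CPM on day 5. The differences from day 0 were 5.80 ± 0.45 (adjusted p = 7.24e-17), 3.28 ± 0.67 (3.23e-05) and 2.78 ± 0.74 (0.000863), and days 3 and 4 did not pass. The overlapping gene TFAP2A-AS2 was at 0.192 to 0.805 CPM in the 30 Endo libraries and 0.438 to 0.872 CPM in the 6 day 0 libraries. TFAP2A on days 2 and 5 was near these levels, and the part of antisense reads in its values was not tested. TFAP2C went down and up by day: it was at 4.31 and 5.01 CPM on day 1, 15.4 and 15.8 CPM on day 2, 4.32 and 6.02 CPM on day 3, 13.8 and 13.6 CPM on day 4 and 19.4 and 18.9 CPM on day 5. The low days 1 and 3 of TFAP2C differed from day 0 by -1.84 ± 0.19 and -1.69 ± 0.19 on the log2 scale (adjusted p = 5.35e-12 and 2.55e-11), and the others did not differ beyond the test. TFAP2B had counts in 1 of the 10 WT Endo libraries, at 0.0209 CPM. On day 5 of Endo 1 of the 3 genes, TFAP2A, was called, against 63.4% of all genes, and on days 1 to 4 the shares of all genes called were 48.4%, 56.7%, 61% and 61.8%.

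**Figure D1:**
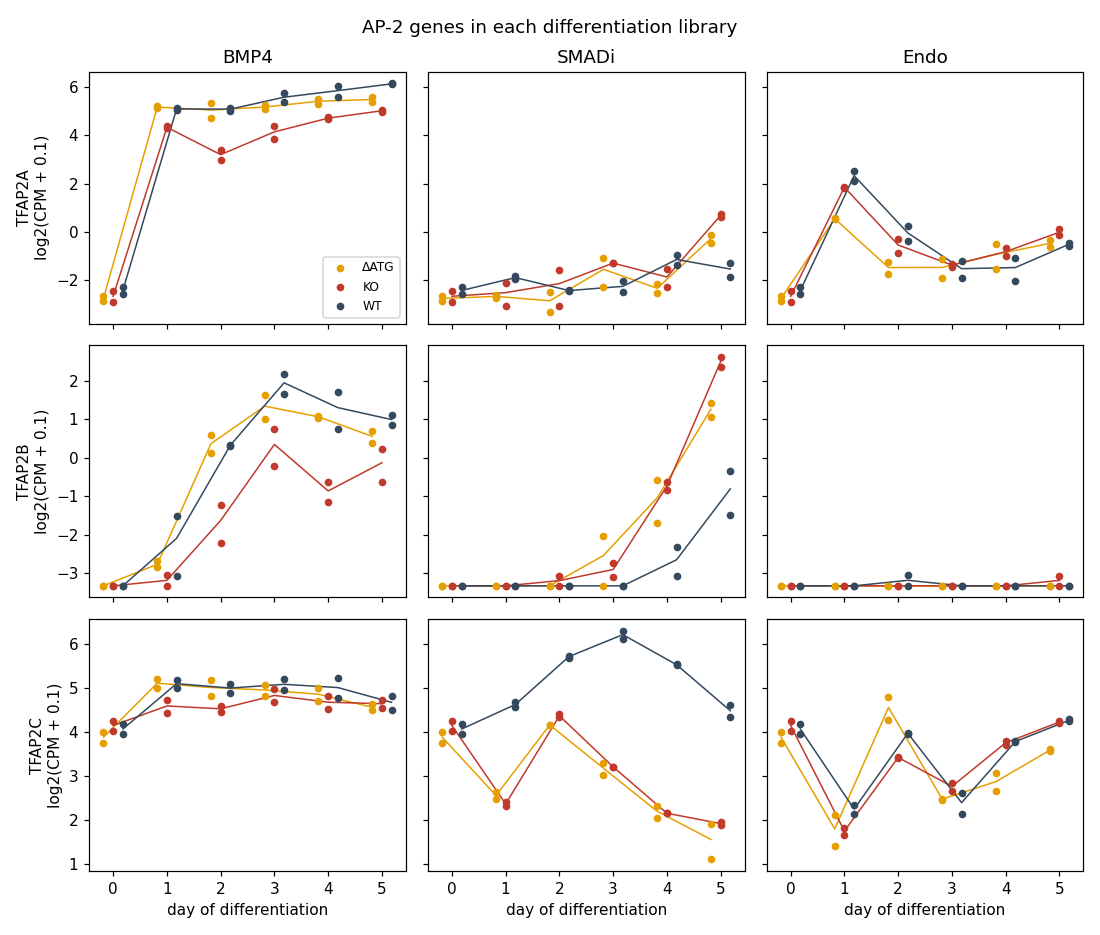
TFAP2A, TFAP2B and TFAP2C (rows) in the BMP4, SMADi and Endo protocols (columns), as log2(CPM + 0.1) against day, with 1 point per library and lines through the means of ΔATG, KO and WT cells. In WT cells TFAP2A is at 71.4 and 69.1 CPM on day 5 of BMP4 and at 0.177 and 0.314 CPM on day 5 of SMADi, while TFAP2C peaks at 79.0 and 69.2 CPM on day 3 of SMADi.

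Averaged over days 1 to 5 of WT cells, TFAP2A was higher in BMP4 than in SMADi by 8.09 ± 0.14 and than in Endo by 6.07 ± 0.11 on the log2 scale (adjusted p = 9.74e-49 and 3.12e-47). TFAP2C was lower in BMP4 than in SMADi, by -0.34 ± 0.07 (adjusted p = 3.41e-05), and higher in both than in Endo, by 1.65 ± 0.08 and 1.99 ± 0.08. For the contrasts of BMP4 with SMADi, BMP4 with Endo and SMADi with Endo, 60.5%, 67.4% and 67% of all genes were called.

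Levels of different genes were set side by side only per kilobase of the principal transcript (2071 bases for TFAP2A, 5773 for TFAP2B and 2866 for TFAP2C). On that scale TFAP2C was the highest of the 3 in 33 of the 48 differentiation groups and TFAP2A in 15. TFAP2A led in every ΔATG and WT group of BMP4, in the KO groups of BMP4 days 1, 4 and 5, and in the KO and WT groups of Endo day 1. In WT cells on day 5 of BMP4 TFAP2A had 33.9 CPM per kilobase, TFAP2C 8.88 and TFAP2B 0.328. In WT stem cells at day 0 the order was TFAP2C at 5.82, TFAP2A at 0.0418 and TFAP2B without counts. On days 2 and 3 of BMP4 in KO cells TFAP2C was ahead on the per-kilobase scale, at 8.02 and 9.90, with TFAP2A at 4.40 and 8.52. The library ranges of TFAP2A and TFAP2C do not overlap on day 2 and overlap on day 3 (6.98 to 10.1 for TFAP2A and 8.86 to 10.9 for TFAP2C).

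Across the 48 group means of log2 CPM, TFAP2A and TFAP2B had a Pearson correlation of 0.670, TFAP2A and TFAP2C of 0.377 and TFAP2B and TFAP2C of 0.176. These points share cell line, protocols and days, and no test was made of them. TFAP2B had no counts at day 0 and in most Endo groups, and its highest group mean was 5.56 CPM. Its correlations therefore rest in part on values at the floor. Among 13330 other genes reaching 10 CPM in some group, those most like TFAP2A were ISL1 (0.928), MSX2 (0.905), CDX2 (0.890), MSX1 (0.876) and IGFBP7 (0.870). For TFAP2B they were HEY1 (0.819), CEP95 (0.819), USP21 (0.810), PCDH19 (0.809) and CCHCR1 (0.809), and for TFAP2C they were EPS8L2 (0.801), FBXO2 (0.772), ECEL1P1 (0.770), DIAPH2 (0.767) and ECEL1P2 (0.763). ISL1, MSX1, MSX2 and CDX2 are homeobox factors of mesoderm and amnion. By rank correlation 2 of the 5 genes were shared for TFAP2A, 1 for TFAP2B and 2 for TFAP2C.

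**Figure D2:**
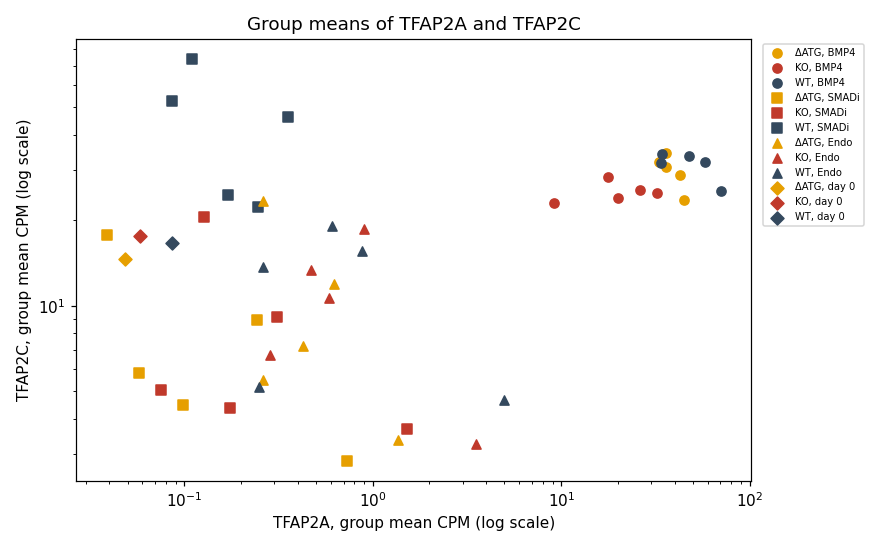
Group means of TFAP2A (x axis, CPM, log scale) and TFAP2C (y axis, CPM, log scale) for the 48 differentiation groups, coloured by cells and shaped by protocol. BMP4 groups stand apart to the right on TFAP2A, KO ones left of ΔATG and WT ones, and the WT groups of SMADi days 2 to 4 stand highest on TFAP2C.

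At day 0 the edited cells did not differ from WT in TFAP2C beyond the test: it was at 16 and 13.3 CPM in ΔATG, 19.1 and 16.2 CPM in KO and 18.0 and 15.3 CPM in WT cells. The difference for TFAP2C was -0.18 (95% interval -0.51 to 0.15) for ΔATG minus WT and 0.08 (-0.24 to 0.41) for KO minus WT. TFAP2A was at 0.0335 to 0.105 CPM in the 6 day 0 libraries and TFAP2B had no counts in any. None of the 3 genes was called, against 5.5% of all genes for ΔATG and 4.89% for KO; with edgeR's unadjusted p none was under 0.05 either, and DESeq2 called none.

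During BMP4 treatment KO cells had less TFAP2A on every day, less TFAP2B on 4 of 5 days, and slightly less TFAP2C averaged over days. On day 1 TFAP2A was at 19.4 and 20.8 CPM in KO cells, against 32.8 and 35.5 CPM in WT cells. On day 2 it was at 10.4 and 7.88 CPM in KO cells, against 32.4 and 35.5 CPM in WT cells, and on day 5 at 33.4 and 31.5 CPM in KO cells, against 71.4 and 69.1 CPM in WT cells. KO libraries were below WT libraries on each of the 5 days without overlap, and day 2 was the lowest day of TFAP2A in KO cells. The difference averaged over days was -1.27 ± 0.07 on the log2 scale (edgeR adjusted p = 2.59e-22), and the daily values were -0.77 ± 0.16, -1.89 ± 0.17, -1.44 ± 0.16, -1.14 ± 0.15 and -1.12 ± 0.15, all called, on days where 1.27%, 8.2%, 9.86%, 15.6% and 22.3% of all genes were. Its size depended on the day (F = 6.65, adjusted p = 0.00415), as it did for 10.4% of genes. The day 1 call was lost without KO replicate a or WT replicate b of that day, and the dependence on day without KO day 2 replicate b (adjusted p = 0.0515).

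TFAP2B was at 0.331 and 0.118 CPM on day 2 in KO cells, against 1.17 and 1.14 CPM in WT cells. On day 3 it was at 1.59 and 0.758 CPM in KO cells, against 4.45 and 3.07 CPM in WT cells, and on day 4 at 0.354 and 0.549 CPM in KO cells, against 3.16 and 1.58 CPM in WT cells. The KO libraries were lower on each of days 2 to 5, by -2.35, -1.69, -2.41 and -1.16 on the log2 scale, and all 4 days were called. The day 2 call was lost without replicate b of either group, and the day 5 call without KO replicate b or either WT replicate. The difference for TFAP2B averaged over days was -2.23 ± 0.43 (adjusted p = 9.21e-05), but without WT BMP4 day 1 replicate b, the library with most of the day 1 counts, it was -1.69 and no longer passed (0.313). TFAP2C averaged -0.32 ± 0.07 (adjusted p = 0.000285). All 3 genes were called lower over the 5 days, against 15.4% of all genes lower and 28.7% in either direction. In this protocol letters a and b deviated together, and with a block for the letter within each protocol TFAP2C passed in KO cells on days 1, 2 and 4 (adjusted p = 0.00295, 0.00152 and 0.0176), where without it no day passed.

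In BMP4, the average over days of ΔATG against WT cells passed the test for TFAP2A and not for TFAP2B or TFAP2C. TFAP2A was at 36.8 and 35.2 CPM on day 1 in ΔATG cells, against 32.8 and 35.5 CPM in WT cells, and at 48.3 and 41.3 CPM on day 5 in ΔATG cells, against 71.4 and 69.1 CPM in WT cells. The libraries overlapped on days 1 and 2 and ΔATG was the lower on days 3 to 5, so that the average of -0.29 ± 0.07 (adjusted p = 0.000953) went with -0.65 ± 0.15 on day 5 (0.00137), the day that passed by itself, though not without ΔATG replicate b (0.0753). With the block within protocol TFAP2A also passed on days 3 and 4 (-0.40 and -0.43, adjusted p = 0.0117 and 0.00517) and its difference depended on the day (F = 7.01, 0.00623), which it did not without the block (F = 3.99, 0.148). Without the block 0.929%, 2.44%, 5.6%, 5.12% and 11.1% of all genes were called on days 1 to 5 and 2.27% depended on the day. TFAP2B in ΔATG minus WT was -0.53 (95% interval -1.17 to 0.10, adjusted p = 0.303) and TFAP2C -0.07 (-0.21 to 0.06, 0.561). Thus 1 of the 3 genes was called, against 17% of all genes over the 5 days.

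Set directly against each other, ΔATG cells had more of all 3 AP-2 genes than KO cells in BMP4. TFAP2A on day 2 was at 40.1 and 26 CPM in ΔATG cells, against 10.4 and 7.88 CPM in KO cells. The average for TFAP2A was 0.98 ± 0.07 (adjusted p = 5.90e-17) and depended on the day (F = 10.6, 0.000942), a dependence lost without ΔATG day 2 replicate a (0.0788) and shown by 1.32% of genes. With the block within protocol the TFAP2C difference depended on the day too (F = 5.42, 0.0379). TFAP2B averaged 1.70 ± 0.59 (0.0481) and TFAP2C 0.25 ± 0.07 (0.0134), where 13.6% of all genes were called. The TFAP2B difference was near the threshold and did not pass in 12 of 20 fits that left out 1 library, nor did TFAP2C in 4 of 20.

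**Figure D3:**
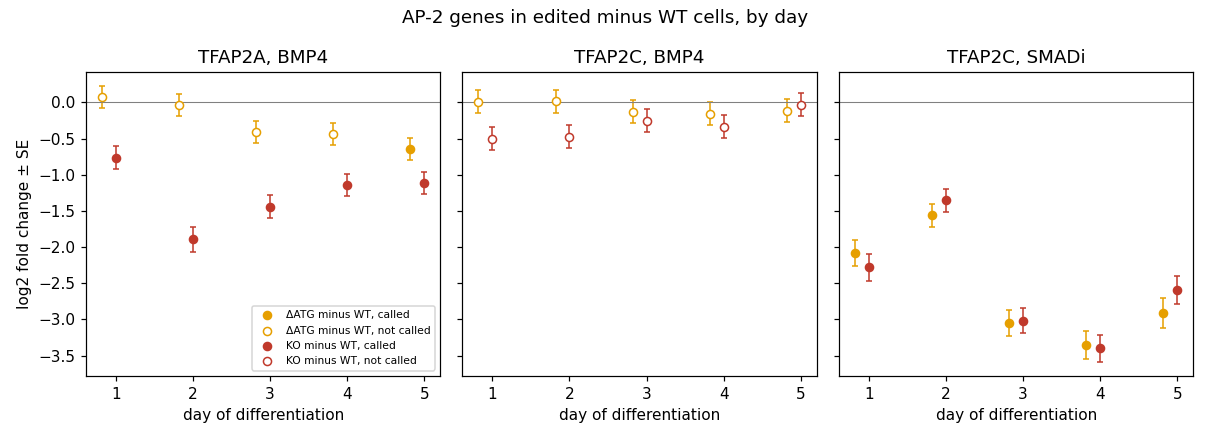
Log2 fold change against WT cells (y axis, ± SE) by day (x axis) for TFAP2A in BMP4, TFAP2C in BMP4 and TFAP2C in SMADi, ΔATG and KO cells side by side, with filled points where the day passed the test without a block for the letter. TFAP2A in BMP4 lies between -0.77 and -1.89 in KO cells, and TFAP2C in SMADi is at -1.35 or lower in both edited lines on all 5 days.

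Markers of several other cell types differed in the same BMP4 comparisons, and some lists went both ways. Over the 5 days 17% of all genes were called in ΔATG and 28.7% in KO, and 15.4% were called lower in KO. Some genes, such as MSX2, stand in more than 1 list, so the counts of the lists are not independent. Of 22 tested genes of a list for amnion and trophoblast, 12 were lower and 1 higher in ΔATG, and 21 were lower and 1 higher in KO, relative to WT cells over the 5 BMP4 days, with medians of -0.34 and -1.14 (all genes: 0.00 for both). The summed level of that list's 24 genes spanned 1417 to 2869 CPM in ΔATG, 935 to 2158 CPM in KO and 1657 to 4807 CPM in WT libraries. HAND1 and TBX3, factors of lateral mesoderm and amnion, fell by 1.78 and 1.69 on the log2 scale in KO cells, and KRT7, a simple-epithelial keratin, rose by 0.44. All 14 direct BMP targets were lower in KO cells, MSX1 by -1.86, and 11 were lower in ΔATG cells. All 15 streak and mesoderm genes were lower in both lines, with medians of -0.83 in ΔATG and -1.71 in KO, and their summed level spanned 512 to 823 CPM in ΔATG, 260 to 601 CPM in KO and 801 to 1313 CPM in WT libraries. MESP1, a factor of early mesoderm, fell by 0.98 in ΔATG and by 1.99 in KO cells. Of 12 definitive endoderm genes 11 were lower in each line, and the other was higher in KO and not called in ΔATG (medians -0.90 in ΔATG and -1.38 in KO). Their sum was 46.9 to 291 CPM in ΔATG, 45.0 to 183 CPM in KO and 93.5 to 606 CPM in WT libraries. Of 15 pluripotency genes 12 were higher and none lower in each (medians 0.33 and 0.41), SOX2 by 0.61 and 0.87, with sums of 6507 to 10054 CPM in ΔATG, 6626 to 10496 CPM in KO and 4654 to 9812 CPM in WT libraries. Of 14 neural crest and border genes 4 were lower and 3 higher in ΔATG and 7 lower and 3 higher in KO. Of 10 tested surface ectoderm genes 3 were lower in ΔATG and 6 in KO, none higher. Of 14 primordial germ cell genes 6 were lower and 4 higher in ΔATG and 4 lower and 5 higher in KO. Of 15 neuroectoderm genes 1 was lower and 4 higher in ΔATG and 2 lower and 5 higher in KO. Of 11 tested naive pluripotency genes 3 were lower and 1 higher in ΔATG and 5 lower in KO. In bulk RNA, fewer cells of a type and less RNA per cell cannot be told apart, and the part of cell makeup in the AP-2 differences was not tested.

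Among 12 listed family members and regulators, 11 could be tested, and in KO cells of the BMP4 course 3 were lower and 1 higher, where 28.7% of all genes were called. TFAP2E, the paralogue AP-2epsilon, was at 1.04 CPM on average in KO cells, against 1.77 CPM in WT cells, and fell by 0.76. KCTD15, a repressor of AP-2, fell by 0.18, CITED2, a coactivator, fell by 0.16, and CITED4, a related coactivator, rose by 0.28. In ΔATG cells 1 was lower and 1 higher, where 17% of all genes were called: KCTD15 fell by 0.12 and EP300, the coactivator p300, rose by 0.18. TFAP2D, the other paralogue, did not exceed 0.0528 CPM in any library of the study. Of 14 tested genes that have been reported as AP-2 targets, 3 were higher and 4 lower in ΔATG (median 0.05) and 3 higher and 6 lower in KO (median -0.12). The gelatinase gene MMP2 fell by 0.66 in ΔATG and by 0.97 in KO cells, and ERBB2, a receptor kinase, rose by 0.36 and 0.38.

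In SMADi the edited lines shared a deep fall of TFAP2C. On day 1 TFAP2C was at 5.48 and 6.11 CPM in ΔATG and 5.21 and 4.93 CPM in KO cells, against 25.4 and 23.8 CPM in WT cells. On day 3 it was at 9.79 and 8.11 CPM in ΔATG and 9.15 and 9.16 CPM in KO cells, against 79.0 and 69.2 CPM in WT cells. On day 4 it was at 4.06 and 4.93 CPM in ΔATG and 4.34 and 4.37 CPM in KO cells, against 45.9 and 46.3 CPM in WT cells. Neither edited line overlapped WT on any day, and both reached their highest SMADi level on day 2, at 17.7 and 17.9 CPM in ΔATG and 21.0 and 20.1 CPM in KO cells, with WT highest on day 3. The average difference was -2.59 ± 0.08 for ΔATG (edgeR adjusted p = 1.65e-33) and -2.53 ± 0.08 for KO (2.48e-33), and it depended on the day in both (F = 18.6 and 21.4, adjusted p = 2.60e-08 and 2.90e-09). ΔATG minus KO was -0.06 with a 95% interval of -0.25 to 0.12 for TFAP2C. The falls stand where 24.3% of all genes were called lower in ΔATG and 24.6% in KO, and 1.07% differed between ΔATG and KO. TFAP2C was called lower on each of the 5 days, where 10.3%, 16.8%, 28.4%, 34.3% and 32.3% of genes were called in ΔATG and 8.64%, 14.7%, 30.6%, 36.1% and 35.2% in KO, and 29.5% and 32.7% depended on the day. Over the 5 days 45.2% of genes were called in ΔATG and 45.6% in KO.

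TFAP2A and TFAP2B moved the other way at the end of SMADi. TFAP2B on day 5 was at 2.01 and 2.60 CPM in ΔATG and 5.08 and 6.05 CPM in KO cells, against 0.687 and 0.259 CPM in WT cells. These groups did not overlap, and the differences from WT were 2.33 ± 0.44 for ΔATG (adjusted p = 6.27e-05) and 3.57 ± 0.37 for KO (4.64e-10). KO exceeded ΔATG in TFAP2B on that day, as ΔATG minus KO was -1.25 ± 0.27 (0.00909), a call kept in 1 of 4 fits that left out a library, on a day when 1.03% of genes were called. On day 4 TFAP2B was at 0.566 and 0.209 CPM in ΔATG and 0.543 and 0.460 CPM in KO cells, against 0.0191 and 0.101 CPM in WT cells, which passed for KO (3.04 ± 1.00, 0.0153) and not for ΔATG (2.65 ± 1.07, 0.0521). The KO call of day 4 was lost without replicate a of either group. TFAP2A on day 5 was at 0.636 and 0.824 CPM in ΔATG and 1.57 and 1.46 CPM in KO cells, against 0.177 and 0.314 CPM in WT cells. It rose by 1.59 ± 0.57 in ΔATG (0.0252) and by 2.60 ± 0.47 in KO (8.34e-06), the ΔATG call being lost without ΔATG replicate b or WT replicate a, while TFAP2A-AS2 was at 0 to 0.0589 CPM in these 6 libraries. On that day TFAP2A and TFAP2B were called higher in both edited lines, against 13.8% of all genes in ΔATG and 15.5% in KO. Before day 5 TFAP2A did not pass on any SMADi day in either line.

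**Figure D4:**
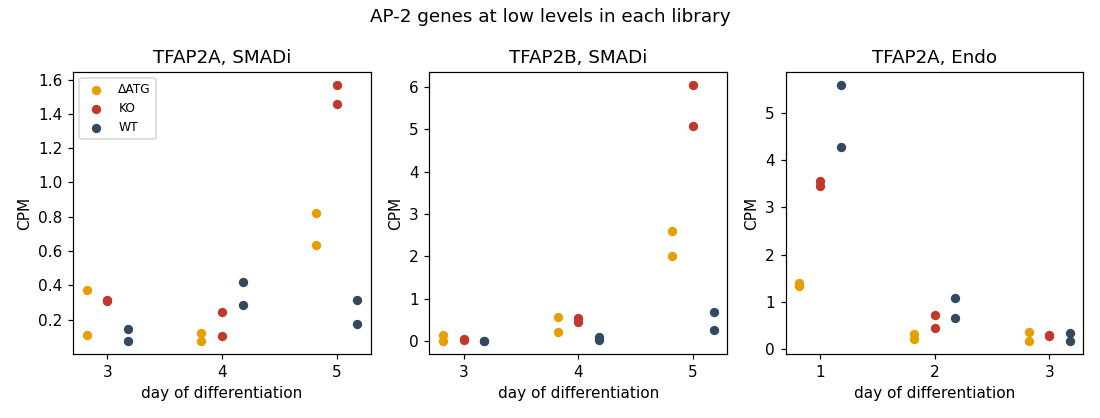
TFAP2A and TFAP2B on days 3 to 5 of SMADi and TFAP2A on days 1 to 3 of Endo, as CPM (y axis) by day (x axis) with 1 point per library for ΔATG, KO and WT cells. On day 5 of SMADi the KO points of TFAP2B are at 5.08 and 6.05 CPM, above ΔATG and WT, and on day 1 of Endo the ΔATG points of TFAP2A are at 1.39 and 1.34 CPM, below KO and WT.

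The SMADi lists gave this setting, where 45.2% of all genes were called in ΔATG and 45.6% in KO over the 5 days. Called lower were 24.3% of all genes in ΔATG and 24.6% in KO. Of 15 neuroectoderm genes 10 were higher and 3 lower in ΔATG and 9 higher and 3 lower in KO, and of 15 pluripotency genes 12 were lower and 1 higher in each. PAX6, a neural progenitor factor, rose by 2.76 in ΔATG and 2.86 in KO cells, and NANOG, a pluripotency factor, fell by 4.71 and 6.20. Of 10 tested surface ectoderm genes 5 were lower and 1 higher in each line, with EPCAM, an epithelial adhesion protein, at -2.50 and -2.82 and GRHL2, an epithelial transcription factor, at -2.36 and -2.55 on the log2 scale. Among primordial germ cell genes 11 of 14 were lower in ΔATG and 10 of 14 in KO, none higher, and UTF1 fell by 5.43 and 6.15. Neural crest and border genes went both ways, with 5 of 14 higher and 3 lower in ΔATG and 5 higher and 4 lower in KO. The summed level of that list spanned 122 to 194 CPM in ΔATG, 120 to 227 CPM in KO and 218 to 435 CPM in WT libraries. Of 14 reported AP-2 targets 10 were lower and 2 higher in each line, with medians of -0.70 and -0.69 (all genes: -0.01 for both), among them CDH1, the epithelial cadherin, which fell by 2.15 and 2.53, and IGFBP5, which rose by 1.86 and 1.88. Among AP-2 regulators KCTD1 fell by 0.62 and 0.72 and TFAP2E by 1.48 and 1.57, and CREBBP, WWOX, CITED1 and CITED2 rose in both, CITED1 by 1.49 and 1.44. Direct BMP targets were lower for 8 of 14 in ΔATG and 9 in KO, with 1 higher in each. Amnion and trophoblast genes were lower for 8 of 22 and higher for 3 in ΔATG, and lower for 10 and higher for 1 in KO. Naive pluripotency genes were lower for 9 of 11 in ΔATG and 8 in KO, none higher. In each line 7 of 15 streak and mesoderm genes were lower and 2 higher, and 3 of 12 definitive endoderm genes lower and 1 higher. The part of a different pace of neural induction in the TFAP2C difference was not tested.

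In Endo, the single days and averages against WT that passed were those of ΔATG cells. In KO cells none did, TFAP2C on day 2 coming nearest (edgeR adjusted p = 0.0565). TFAP2A at its day 1 peak was at 1.39 and 1.34 CPM in ΔATG and 3.56 and 3.46 CPM in KO cells, against 5.60 and 4.28 CPM in WT cells. The 3 groups did not overlap, and ΔATG differed from WT by -1.86 ± 0.27 (adjusted p = 3.99e-07) and from KO by -1.37 ± 0.28 (0.000971), while KO minus WT was -0.49 (95% interval -0.92 to -0.06, adjusted p = 0.286). TFAP2A-AS2 was at 0.381 and 0.282 CPM in ΔATG, 0.479 and 0.445 CPM in KO and 0.629 and 0.489 CPM in WT on that day. On day 2 TFAP2A was at 0.322 and 0.199 CPM in ΔATG, against 0.662 and 1.08 CPM in WT cells (-1.71 ± 0.53, 0.0205), and this call of TFAP2A was lost when either ΔATG library or WT replicate b was left out. Over all days the TFAP2A difference did not pass (-0.52 ± 0.26, 0.110) and depended on the day (F = 6.35, 0.00343), as for 16.2% of genes. On days 1 to 5 the shares of all genes called were 14.6%, 13.7%, 15.9%, 14.8% and 18.2% in ΔATG and 3.28%, 4.65%, 3.7%, 4.02% and 5.48% in KO.

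TFAP2C in Endo differed in ΔATG with a sign that changed by day. On day 2 it was at 27.8 and 19.2 CPM in ΔATG, against 15.4 and 15.8 CPM in WT cells. On day 4 it was at 6.22 and 8.25 CPM in ΔATG, against 13.8 and 13.6 CPM in WT cells, and on day 5 at 12.1 and 11.7 CPM in ΔATG, against 19.4 and 18.9 CPM in WT cells. TFAP2C was thus the higher in ΔATG on day 2 (0.59 ± 0.17, adjusted p = 0.00953) and the lower on days 4 (-0.92 ± 0.19, 0.000227) and 5 (-0.68 ± 0.17, 0.00240), and the difference depended on the day (F = 11.9, 1.89e-05). Without ΔATG Endo day 2 replicate a the day 2 value of TFAP2C was 0.29 and did not pass (0.513), nor did it without either WT library of that day (0.0832 and 0.0547). The average of -0.27 ± 0.09 (0.0113) made TFAP2C the 1 gene of 3 called over the 5 days in ΔATG, against 33.8% of all genes, and none of 3 was called in KO, against 14.8%. Against KO, ΔATG had lower TFAP2A on average (-0.65 ± 0.24, 0.0481, lost in most fits without 1 library), with 18.4% of genes called. TFAP2C in ΔATG minus KO was 1.14 on day 2, -0.89 on day 4 and -0.64 on day 5, all called and dependent on the day (F = 20.5, 1.03e-07), where 4%, 5.53%, 6.68% and 7.07% of genes were called on days 1, 2, 4 and 5 and 7.93% depended on the day. The day 5 call was lost without any 1 of its 4 libraries, and the day 4 call without ΔATG replicate a. The KO averages were 0.12 (95% interval -0.34 to 0.58) for TFAP2A and -0.15 (-0.32 to 0.02) for TFAP2C; at an unadjusted p under 0.05 none of the KO averages passed either. In ΔATG 5 of 11 family members and regulators were lower and none higher, WWOX by -0.63 and CITED2 by -0.46, where 33.8% of all genes were called.

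Markers of the cell types of this protocol moved in ΔATG as well, where 33.8% of all genes were called in ΔATG and 14.8% in KO. Of 15 streak and mesoderm genes 13 were lower in ΔATG and 9 in KO, none higher in either, with medians of -0.59 and -0.40 (all genes: 0.02 and 0.00). Their summed level was 1218 to 2809 CPM in ΔATG, 1371 to 3593 CPM in KO and 1534 to 3633 CPM in WT libraries, and MESP1 fell by 2.58 in ΔATG. Of 12 definitive endoderm genes 7 were lower and 3 higher in ΔATG and 2 lower and 2 higher in KO, and their sum was 1970 to 12694 CPM in ΔATG, 3360 to 15419 CPM in KO and 3141 to 16210 CPM in WT libraries. CER1, a secreted inhibitor made by endoderm, fell by 0.56 in ΔATG. Of 14 neural crest and border genes 8 were lower and 2 higher in ΔATG and 4 lower in KO, and of 22 amnion and trophoblast genes 10 were lower and 4 higher in ΔATG and 8 lower and 1 higher in KO. The part of these shifts in the TFAP2A and TFAP2C values was not tested.

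The effect of the edits on TFAP2A and TFAP2C differed between some pairs of protocols by direct test. In KO cells the TFAP2A effect in BMP4 was below that in SMADi by -1.77 ± 0.43 (edgeR adjusted p = 0.000529) and below that in Endo by -1.40 ± 0.25 (1.58e-05). The SMADi side rests in part on few counts. KO libraries of SMADi had 1.28 and 8.27 TFAP2A counts on day 1 and 1.29 and 11.6 on day 2. Without KO SMADi replicate b of day 1 or of day 2 the TFAP2A contrast of BMP4 with SMADi was -1.39 or -1.25 and did not pass (adjusted p = 0.266 and 0.298). For TFAP2C the BMP4 effect minus the SMADi effect was 2.52 ± 0.11 in ΔATG and 2.21 ± 0.11 in KO cells, and the SMADi effect minus the Endo effect was -2.32 ± 0.12 in ΔATG and -2.38 ± 0.12 in KO cells, all called. The BMP4 effect minus the Endo effect on TFAP2C did not pass, at 0.20 (95% interval -0.02 to 0.42) in ΔATG and -0.17 (-0.39 to 0.05) in KO cells, nor did the SMADi effect minus the Endo effect on TFAP2A in KO cells, at 0.38 (-0.54 to 1.30). In ΔATG the TFAP2A effect passed for no pair of protocols, at 0.07 (-0.70 to 0.85), 0.23 (-0.28 to 0.75) and 0.16 (-1.04 to 1.36). These interactions of BMP4 with SMADi were called for 35.7% of all genes in ΔATG and 42% in KO, those of BMP4 with Endo for 22.8% and 20.2%, and those of SMADi with Endo for 37.5% and 30.2%.

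In the overexpression set TFAP2A and TFAP2B came on in 2 groups of the middle stage. TFAP2A was at 74.1 and 68.9 CPM in middle libraries labelled lncSIRP and 81.5 and 81.2 CPM in those labelled lncPRESS1, against 0.311 and 0.551 CPM in vector cells. TFAP2B was at 1.61 and 0.865 CPM in lncSIRP and 1.89 and 2.74 CPM in lncPRESS1 libraries, and had no counts in vector cells. These 4 libraries stood apart from all others of the set, where TFAP2A did not exceed 0.559 CPM and TFAP2B had counts in 1 library, at 0.0172 CPM. TFAP2A was 7.34 ± 0.20 above vector in lncSIRP (edgeR adjusted p = 1.30e-15) and 7.52 ± 0.20 in lncPRESS1 (8.74e-16). TFAP2B was at least 48.8-fold and 91.1-fold above a floor of 3 counts over the vector libraries (0.000300 and 5.83e-05). TFAP2C was at 40.0 and 37.1 CPM in lncSIRP and 39.5 and 39.5 CPM in lncPRESS1, against 55.2 and 47.6 CPM in vector cells, lower by -0.41 ± 0.14 (0.0145) and -0.38 ± 0.14 (0.0244). All 3 genes were called in both groups, where 60.4% and 58.1% of 23300 genes were. Without vector middle replicate a neither TFAP2C call held, at -0.31 and -0.27, nor did that of lncSIRP without its replicate b or that of lncPRESS1 without either of its own.

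The groups labelled lncSIRP and lncPRESS1 did not differ from each other at that stage beyond the test. lncSIRP minus lncPRESS1 was -0.19 for TFAP2A (95% interval -0.41 to 0.03), -0.85 for TFAP2B (-1.51 to -0.19, adjusted p = 0.398) and -0.03 for TFAP2C (-0.31 to 0.24), and 2.19% of all genes were called. By unadjusted p under 0.05 TFAP2B was the 1 of the 3 that passed. At the early and late stages TFAP2A was within 0.230 to 0.559 CPM in lncSIRP, lncPRESS1 and vector libraries, and neither construct passed the test against vector in any of the 3 genes (TFAP2C in early lncSIRP did so when only those libraries were fitted, at -0.24, adjusted p = 0.0197), where 10.8% and 0.412% of genes were called in early lncSIRP and lncPRESS1 libraries and 21.4% and 22.6% in late ones. The TFAP2A effect depended on the stage in both (F = 115 for lncSIRP and 113 for lncPRESS1, adjusted p = 3.95e-09 and 4.75e-09), as for 48.1% and 48.2% of genes. Its middle minus early difference was 7.81 and 7.36 (46.6% and 44.8% of genes called) and its late minus middle difference -7.04 and -7.25 (39.4% and 38.3%).

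**Figure D5:**
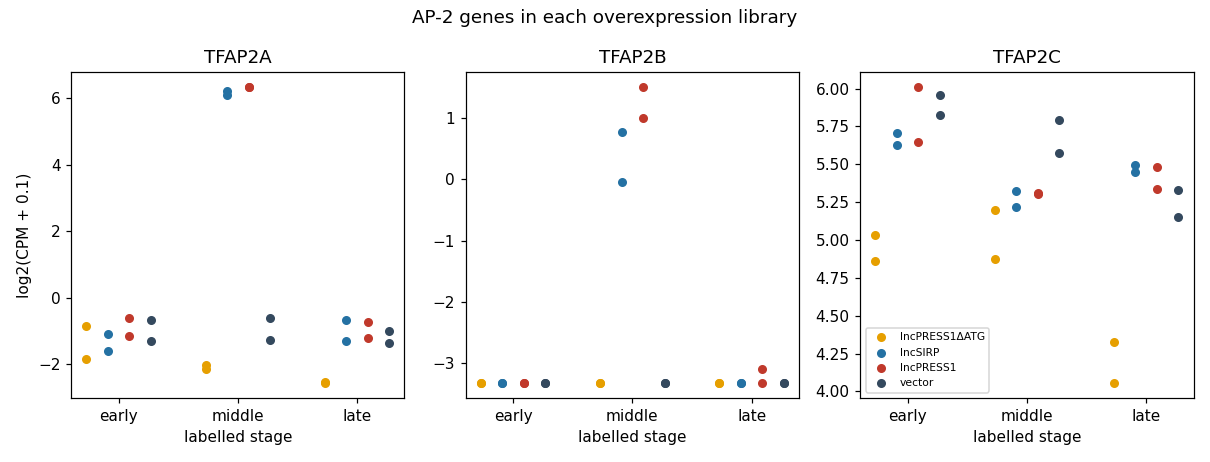
TFAP2A, TFAP2B and TFAP2C as log2(CPM + 0.1) (y axis) by labelled stage (x axis) with 1 point per library for lncPRESS1ΔATG, lncSIRP, lncPRESS1 and vector cells. TFAP2A is at 74.1 and 68.9 CPM in middle lncSIRP and 81.5 and 81.2 CPM in middle lncPRESS1 libraries, and TFAP2C is lowest in late lncPRESS1ΔATG, at 16.5 and 19.9 CPM.

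Other markers also differed from vector in these middle libraries, where 60.4% of all genes were called in lncSIRP and 58.1% in lncPRESS1. Of 22 amnion and trophoblast genes 21 were higher and 1 lower in lncSIRP and 21 higher and none lower in lncPRESS1, with medians of 4.44 and 4.55 (all genes: -0.04 for both), and the list's summed level was 8930 to 8996 CPM in lncSIRP and 8188 to 8342 CPM in lncPRESS1, against 1415 to 1591 CPM in vector cells. Of 15 pluripotency genes 13 were lower in each, SOX2 by -5.58 and -6.14, and their summed level was 3119 to 3127 CPM in lncSIRP and 3222 to 3232 CPM in lncPRESS1, against 9163 to 9757 CPM in vector cells. MSX2, a homeobox gene of the list for amnion, rose by 7.66 and 7.92. These cells had lost the pluripotency levels of the other libraries, and the part of that in the AP-2 values was not tested. Of 11 family members and regulators 7 were higher and 3 lower in each group, with CITED2 at 2.79 and 2.79, CREBBP at 1.44 and 1.33, KCTD15 at 1.29 and 1.15, KCTD1 at 1.05 and 1.10, and CITED4 at -2.25 and -2.52 on the log2 scale. Of 14 reported AP-2 targets 6 were higher and 8 lower in each, from IGFBP5 at 5.46 and 5.16 to RET at -3.98 and -3.55.

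lncPRESS1ΔATG libraries had less TFAP2C than vector at every stage. TFAP2C was at 29 and 32.6 CPM in early lncPRESS1ΔATG libraries, against 56.7 and 61.9 CPM in vector cells. At the middle stage it was at 29.2 and 36.6 CPM in lncPRESS1ΔATG, against 55.2 and 47.6 CPM in vector cells, and at the late stage at 16.5 and 19.9 CPM in lncPRESS1ΔATG, against 40.1 and 35.5 CPM in vector cells. No stage overlapped, and the differences of TFAP2C were -0.94 ± 0.14 (adjusted p = 0.000143), -0.64 ± 0.14 (0.00609) and -1.05 ± 0.14 (7.35e-05). The middle call was lost without replicate a of either group. TFAP2A was at 0.0733 and 0.0683 CPM in late lncPRESS1ΔATG libraries, against 0.396 and 0.290 CPM in vector cells, which passed at -2.25 ± 0.74 (0.0371); it did not pass in any fit without 1 of the 4 libraries, and TFAP2A-AS2 was also lower there, at 0.587 and 0.239 CPM, against 1.48 and 1.06 CPM in vector cells. TFAP2B had no counts in any lncPRESS1ΔATG library. The call of TFAP2C alone at the early and middle stages, and of TFAP2A with it at the late stage, stands where 26.3%, 7.36% and 21.1% of all genes were called. Vector cells themselves had less TFAP2C at the late stage than at the early one, by -0.65 ± 0.14, which did not pass (adjusted p = 0.0635), with 0.129% of genes called.

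Definitive endoderm genes were low in the same lncPRESS1ΔATG libraries. Of all genes 26.3%, 7.36% and 21.1% were called at the early, middle and late stages. Of 12 such genes 9, 10 and 10 were lower and none higher at the early, middle and late stages, with medians of -2.58, -3.17 and -3.43 (all genes: 0.01, -0.01 and -0.01). Their summed level was 6.83 to 6.87 CPM in early lncPRESS1ΔATG libraries, against 53.9 to 57.1 CPM in vector cells. At the late stage it was 5.52 to 5.89 CPM in lncPRESS1ΔATG, against 64.7 to 69.7 CPM in vector cells, and CER1 fell by 5.97 on the log2 scale. Of 11 tested naive pluripotency genes 6, 4 and 7 were lower and 1, 1 and none higher at the 3 stages, and of 15 streak and mesoderm genes 6, 7 and 9 were lower, with none, none and 1 higher. Of 15 pluripotency genes 2, 1 and 9 were higher and 3, 2 and 2 lower. The part of these differences in the TFAP2C values was not tested.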

How the data were processed

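Polyadenylated RNA of 120 libraries from H1 cells was sequenced after Illumina stranded mRNA library preparation, per the labels' protocols. The authors deposited 1 table of estimated counts (expected counts, scaled by length) per gene. GRCh38 is named in the submitters' processing notes; which aligner, quantifier, annotation and strand setting were used is not given in the sources used here. The estimated counts were rounded to whole numbers. Differentiation (96 libraries) and overexpression (24) were fitted separately with edgeR 4.0.16 in R 4.3.3 (filterByExpr, TMM, glmQLFit, quasi-likelihood F tests), with 1 coefficient per group and Benjamini-Hochberg adjustment over 25821 and 23300 genes; calls are at an adjusted p under 0.05. CPM used TMM library sizes, with totals of 38298603 to 71219834 and 40113893 to 65466595 counts. A floor of 3 counts was used where a group had none; floors cover counting error only. Standard errors are the log2 fold change divided by the square root of F, and "averaged over days" is the mean of 5 daily log2 differences. The code was tested on simulated counts.

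Genes named beside the 3 members are LNCPRESS1, called family members and regulators, genes from the 2 highest and 2 lowest called changes of every other list, and the 5 most correlated genes. The members and lists were chosen with earlier results of these data known. Letters a and b deviated together in all 3 day 0, all 15 BMP4 and all 6 late pairs of groups (correlations over 0.1 across genes), and so were taken to pair those samples. The main tests do not use this pairing. Calls lost with a block for the letter are given, and calls gained with it are given in part. The letters deviated together in 3 of 15 SMADi, 2 of 15 Endo, 1 of 6 early and 1 of 6 middle pairs. Alternatives were DESeq2 1.42.0, its size factors, no scaling, no filter on low counts, limma voom (limma 3.58.1), fitting only the libraries compared, a replicate block, and leaving out each library. For changes of WT cells from day 0 to days 1 to 4, only the day 0 libraries were left out in turn. Those changes were not refitted without a library of the later day. The blocks within protocol and within stage were added after the data were seen.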

Additional observations from a re-analysis of the deposited data

Results flagged for a closer look

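The effect of an edit on TFAP2A or TFAP2C differed between days of the same protocol in 9 direct tests (edgeR, adjusted p in parentheses). For ΔATG minus WT these were TFAP2A in SMADi (F = 4.11, 0.0220, lost in 4 of 20 fits without 1 library, up to 0.0844) and Endo (F = 6.35, 0.00343), and TFAP2C in SMADi (F = 18.6, 2.60e-08) and Endo (F = 11.9, 1.89e-05). For KO minus WT they were TFAP2A in BMP4 (F = 6.65, 0.00415) and SMADi (F = 5.58, 0.00363), and TFAP2C in SMADi (F = 21.4, 2.90e-09). For ΔATG minus KO they were TFAP2A in BMP4 (F = 10.6, 0.000942) and TFAP2C in Endo (F = 20.5, 1.03e-07).

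Between protocols, the ΔATG effect on TFAP2C differed by 2.52 for BMP4 minus SMADi (5.84e-27) and by -2.32 for SMADi minus Endo (3.17e-23) on the log2 scale. The KO effect on TFAP2A differed by -1.77 for BMP4 minus SMADi (0.000529) and by -1.40 for BMP4 minus Endo (1.58e-05), and that on TFAP2C by 2.21 for BMP4 minus SMADi (1.12e-24) and by -2.38 for SMADi minus Endo (6.66e-24). The TFAP2A difference of BMP4 minus SMADi rests in part on few SMADi counts and was -1.96 to -1.25 without 1 library.

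Between stages of overexpression, the lncSIRP effect on TFAP2A depended on the stage (F = 115, 3.95e-09), with 7.81 for middle minus early (2.11e-08) and -7.04 for late minus middle (2.27e-07). Its effect on TFAP2C depended on the stage as well (F = 5.84, 0.0276, kept in 6 of 12 fits without 1 library, up to 0.137), with 0.64 for late minus middle (0.0135). The lncPRESS1 effect on TFAP2A did likewise (F = 113, 4.75e-09), with 7.36 for middle minus early (3.55e-08) and -7.25 for late minus middle (1.74e-07). The lncPRESS1 effect on TFAP2C differed by 0.55 for late minus middle (0.0324), while its dependence on the stage did not pass. Without 1 library the late minus middle differences of TFAP2C were 0.54 to 0.75 for lncSIRP and 0.44 to 0.65 for lncPRESS1. The lncSIRP call was lost in some of these fits and the lncPRESS1 call in most.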

How the results depend on the processing

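None of 118 called results changed sign in 2044 recomputed values, and 1896 of these kept their side of the threshold. TFAP2C on day 5 of SMADi in WT cells missed it with DESeq2 size factors (0.33), without scaling (0.38), without the filter on low counts (0.39), in DESeq2 (0.34) and with only the libraries compared (0.37). TFAP2A on that day passed in DESeq2 (1.43), as did TFAP2A in ΔATG minus WT of Endo (-0.54) and in lncPRESS1ΔATG at the middle stage (-1.67). TFAP2C in ΔATG minus WT of Endo missed it without scaling (-0.18). For ΔATG minus KO, TFAP2B in BMP4 missed it without scaling (1.69), without the filter (1.68) and with only the libraries compared (1.68), as did TFAP2C in BMP4 in the last (0.23), and TFAP2A in Endo without scaling (-0.58), without the filter (-0.65) and in limma voom (-0.69). With only the libraries compared TFAP2C missed it in middle lncPRESS1ΔATG (-0.63) and passed in early lncSIRP (-0.24), and without the filter TFAP2A missed it in late lncPRESS1ΔATG (-2.23). The changes named here are not the whole list. Fitting only the libraries compared, 19 called results missed the threshold and 6 uncalled ones passed it. In DESeq2 these counts were 6 and 16, and in limma voom 5 and 3.

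With a replicate block over all libraries of an arm no called result missed the threshold, and 8 uncalled ones, not named here, passed it. Under the block within protocol 15 uncalled results passed, and not all of them are named in this report. With the blocks within protocol and within stage, TFAP2A in ΔATG minus KO of Endo (-0.65, adjusted p = 0.0568) and TFAP2C in lncPRESS1 late minus middle (0.55, 0.0532) missed the threshold. In SMADi and Endo, where the letters share only a name, TFAP2B in ΔATG minus WT on day 4 of SMADi (adjusted p = 0.0344) and TFAP2C in KO minus WT on day 2 of Endo (0.00289) passed under the block within protocol, as did the dependence of that KO effect on the day (F = 6.16, 0.013) and TFAP2C on day 4 of Endo in WT cells (-0.41), while TFAP2A on day 4 of SMADi in WT cells missed it (0.0922).

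Leaving out 1 library in turn, the averages over days, day 5 changes in WT cells and contrasts of protocols, constructs and stages that changed side ranged as follows. Edit effects on single days, WT changes on earlier days and tests of dependence on day or stage are not in this list. Some of these changed side too, and not all such changes are named in this report. KO minus WT gave -2.68 to -1.69 for TFAP2B in BMP4, and -1.96 to -1.25 for the TFAP2A effect of KO in BMP4 minus SMADi. ΔATG minus KO gave 1.49 to 2.15 for TFAP2B and 0.21 to 0.28 for TFAP2C in BMP4, and -0.80 to -0.55 for TFAP2A in Endo, which passed in 4 of 20 fits. WT day 5 minus day 0 of TFAP2C gave 0.43 to 0.75 in BMP4 and 0.26 to 0.50 in SMADi. Against vector at the middle stage TFAP2C gave -0.79 to -0.49 in lncPRESS1ΔATG, -0.52 to -0.31 in lncSIRP and -0.49 to -0.27 in lncPRESS1, and late TFAP2A in lncPRESS1ΔATG gave -2.46 to -2.00. TFAP2C late minus middle gave 0.54 to 0.75 for lncSIRP and 0.44 to 0.65 for lncPRESS1, and middle minus early -0.50 to -0.13 for lncPRESS1.

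Counts of called genes moved by over 1.5 times in some settings. With only the libraries compared they were 2717 in place of 4381 for ΔATG in BMP4, 2 in place of 1420 for ΔATG and 3 in place of 1263 for KO at day 0, 1377 in place of 6129, 457 in place of 1714 and 7614 in place of 4926 for early, middle and late lncPRESS1ΔATG, 7549 in place of 2511 for early lncSIRP and 0 in place of 96 for early lncPRESS1 (edgeR; 1787 genes at an unadjusted p under 0.05). Without the filter day 0 gave 872 for ΔATG and 790 for KO, and with the block within protocol 2554 and 2835. Early lncPRESS1 gave 38 with the block within stage and 446 in DESeq2. With 2 libraries a group, levels under about 1 CPM rest on few counts.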
